A study of Mus musculus with 2 samples.

Results

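The simple epithelial keratins are 4 intermediate filament genes, Krt7 and Krt8 of type II and Krt18 and Krt19 of type I, chosen by symbol from the 14500 genes of the deposited table. They were proposed with their values in these libraries known, so what follows describes their levels and does not test them. The libraries came from 46C embryonic stem cells, a mouse line with green fluorescent protein in the Sox1 locus, grown on gelatin in serum medium with LIF and used at passages 21 to 24. The headers of both level columns end in P3, a mark whose meaning is not known here. The library titled PB stood for cells with an empty vector, and that titled PB-Gbx2 for cells with a vector that overexpresses Gbx2, a homeobox transcription factor. The sources used here give neither the promoter of the vector nor whether the cells were 1 clone or a pool. Each group had 1 library, so no value below has a replicate error, no test between conditions was possible, and no replicate check exists for any difference. In bulk RNA, fewer cells of a type and less RNA per cell cannot be told apart.

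Keratins form filaments only as pairs of a type I and a type II chain. Krt8 with Krt18 is the first pair made in the mouse embryo and the basic pair of simple epithelia, which are single layers of cells such as those that line gut and ducts. Krt19 and Krt7 join or replace these partners in trophectoderm, ducts and other simple epithelia. In stem cell cultures, simple keratins are known from cells that take on an epithelial or extraembryonic character, and the filaments are anchored at desmosomes and hemidesmosomes through plakin proteins.

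The levels are whole numbers that the authors normalized, and both libraries hold the same set of values once sorted (total 16528899, median 388). Read depth is unknown, so no counting interval or floor can be given. Gbx2 stood at 345 in PB and at 1178 in PB-Gbx2, a 3.41-fold higher level that goes with the titles of the libraries. The source names in the labels say the opposite of the titles, and if they were right every direction below would turn around. Of the 15 markers fixed for the labelled cell type, all were listed, with Pou5f1 at 9446 and 10597 and Sox2 at 9894 and 10302 in PB and PB-Gbx2.

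All 4 simple keratins were lower in the PB-Gbx2 library, each by at least 2-fold on log2(level + 1), where a log2 ratio of -1 or less counts as 2-fold lower. Over the whole table, 762 of 14500 genes (5.26%) lay at or below -1 and 746 (5.14%) at or above 1. Because the 4 genes were chosen with this contrast known, nothing is read from the gap between their count and these shares. Their median log2 ratio was -2.01, and the median over all genes was 0. Their summed level went from 1315 to 447.

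Krt8, the main type II keratin of simple epithelia, stood at 532 in PB and 225 in PB-Gbx2, which is 2.36-fold lower and a log2 ratio of -1.24. Genes were split by mean level into 20 groups of equal size, and the group of Krt8 held 725 genes with a mean level of 306.5 to 386. Its log2 ratio was the 11th lowest of these, and 20 of them (2.76%) were at least 2-fold lower. Krt7, the type II keratin of ducts and trophoblast, stood at 43 in PB and 4 in PB-Gbx2, which is 10.8-fold lower and a log2 ratio of -3.14. This is the largest fold among the listed keratins and rests on a level of 4 in PB-Gbx2. In its level group (18.5 to 26.5) the log2 ratios had an SD of 0.92, and 92 of 725 genes (12.7%) were at least 2-fold lower. The ratio of Krt7 was the 4th lowest there.

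Krt18, the type I partner of Krt8, stood at 363 in PB and 164 in PB-Gbx2, which is 2.21-fold lower and a log2 ratio of -1.14. Its log2 ratio was the 19th lowest of the 725 genes in its level group (237 to 306), where 24 genes (3.31%) were at least 2-fold lower. The folds of the partners Krt8 and Krt18 were thus close to each other. Krt19, the smallest type I keratin, which lacks most of the tail domain, stood at 377 in PB and 54 in PB-Gbx2, which is 6.98-fold lower and a log2 ratio of -2.78. Its ratio was the lowest of the 725 genes in its level group (174 to 237), and none of the other 8953 genes with its mean level or a higher one had a ratio as low. Of the 7311 other genes with at least the mean level of Krt8, 28 had a ratio as low as its own. By the same count these were 68 of 8427 for Krt18 and 9 of 13298 for Krt7.

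**Figure D1:**
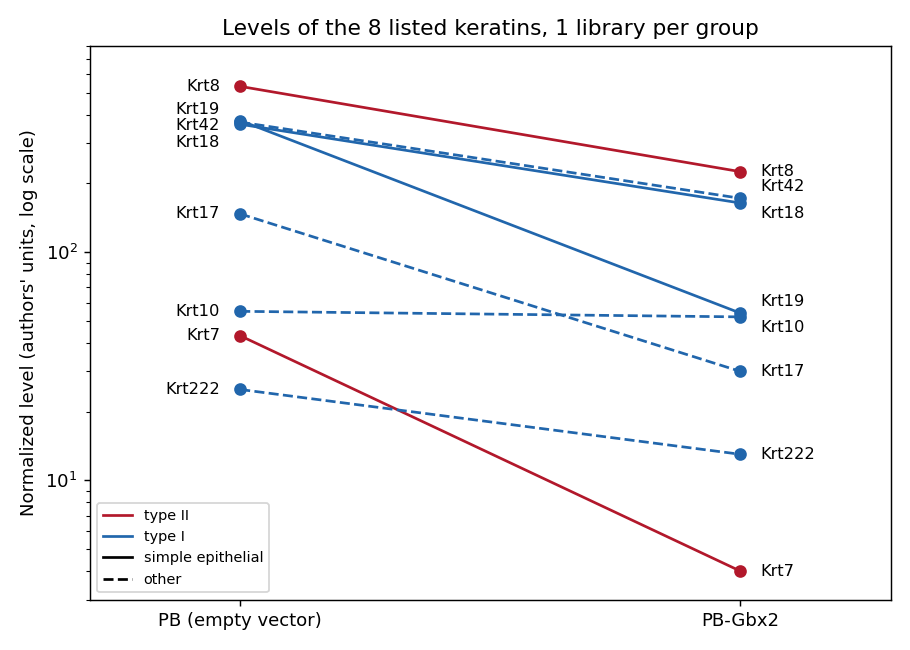
Normalized level of the 8 listed keratins (vertical axis, the authors' units, log scale) in the PB library and the PB-Gbx2 library, with red for type II, blue for type I, full lines for the simple keratins and dashed lines for the others; each dot is 1 library, so there are no error bars. The lines of Krt8, Krt18 and Krt42 are nearly parallel, Krt19 goes from 377 to 54 and Krt7 from 43 to 4, while Krt10 is nearly level at 55 and 52.

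In the authors' deposited table, Krt19 is the only simple keratin with an adjusted p under 0.05 (0.0129), as are 34 of the 14501 rows (0.234%). For the others, the authors' deposited table gives an adjusted p of 0.755 for Krt8 and of 1 for Krt18 and Krt7. Those p-values are the authors' own and rest on 1 library per group.

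Since levels are compared between genes only per length, each level was also divided by the length of the longest coding GENCODE M21 transcript, taking the deposited level as not yet divided by length. On this scale Krt8 stood at 272 per kilobase in PB, Krt18 at 253 and Krt19 at 239, all within a narrow range, while Krt7 stood at 10.5. The Krt7 transcript used was 4094 bases long, against 1958 for Krt8, 1437 for Krt18 and 1576 for Krt19. The Krt7 value per kilobase therefore depends on the transcript chosen. In PB-Gbx2, Krt8 stood at 115 per kilobase and Krt18 at 114, whereas Krt19 stood at 34.3 and Krt7 at 0.977. The Krt8 and Krt18 levels per kilobase were thus close to each other in each library, and the Krt19 level was near theirs in PB and well below them in PB-Gbx2. The summed type II level per kilobase (Krt7 and Krt8) was 282 in PB and 116 in PB-Gbx2, and the summed type I level per kilobase (Krt18 and Krt19) was 492 and 148. The ratio of type II to type I per kilobase was 0.574 in PB and 0.781 in PB-Gbx2. Without division by length it was 0.777 and 1.05, so which type had the higher sum in PB-Gbx2 depends on the length scale, and whether the deposited levels were already per length is not stated. With all 6 listed type I keratins in the sum, that ratio was 0.328 and 0.376. The sequence of Krt8 is less unique than that of the other 3: 29.7% of the distinct 50-base windows of its transcript also occur in other genes (26.9% in the pseudogene Krt8-ps), while that share was 0.72% for Krt18, 0.222% for Krt7 and 0 for Krt19. The treatment of reads that map to both Krt8 and Krt8-ps is not stated, so the Krt8 level is uncertain to that extent.

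**Figure D2:**
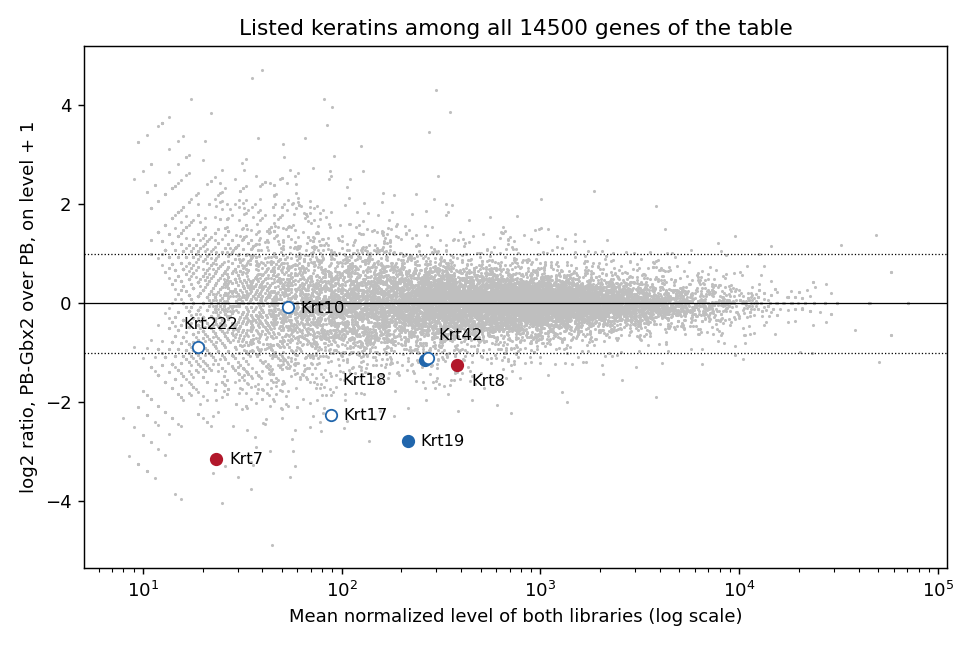
Log2 ratio of PB-Gbx2 over PB on level + 1 (vertical axis) against the mean normalized level of both libraries (horizontal axis, log scale) for all 14500 genes in grey, with the simple keratins as filled circles and the other listed keratins as open circles, red for type II and blue for type I; dotted lines mark 2-fold. Krt19 at -2.78 lies below every grey dot at its level or to the right of it, and Krt7 at -3.14 lies where low levels spread the ratios widely.

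Of the other 4 listed keratins, Krt17 and Krt42 were at least 2-fold lower in PB-Gbx2 and Krt10 and Krt222 were not, while 5.26% of all genes were. RefSeq gives 53 protein-coding keratin genes, and the table lists 8 of them, the 4 simple keratins and the type I genes Krt10, Krt17, Krt42 and Krt222. The 8 listed keratins all lay below 0 on the log2 scale, as did 48.9% of all genes. Krt17, a keratin of basal and activated epithelial cells, stood at 147 in PB and 30 in PB-Gbx2 (4.9-fold lower), and its log2 ratio of -2.26 was the 3rd lowest of the 725 genes of similar level. Krt42, a type I keratin next to Krt17, stood at 371 and 172 (2.16-fold lower), a fold close to that of Krt18. Krt10, the keratin of the upper layers of the epidermis, stood at 55 and 52 and ranked 338th from the lowest among genes of similar level, near the middle. Krt222 stood at 25 and 13 (1.92-fold lower), the 108th lowest ratio of the 725 genes in its level group. By the authors' deposited table, the adjusted p is 0.797 for Krt17 and 1 for Krt42, Krt10 and Krt222. Of the 50-base windows of Krt17, 3.66% also occur in Krt14, so its reads could be split to that extent.

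Upstream sequences are shown for Krt8 and Krt18, the neighbouring pair with nearly the same fold, and for Krt7, the more distant type II gene with the larger fold. They are the 250 bases before the annotated start, 5′ to 3′ on the strand of the gene, from the RefSeq promoter table of build GRCm38.p6, which matched 3 of the 4 simple keratins. Krt7 lies at chr15:101412153-101412402 (+), Krt8 at chr15:102004343-102004592 (-) and Krt18 at chr15:102027966-102028215 (+). Capitals mark matches on either strand to GGGCGG (the GC box bound by Sp1), GCCNNNGGC (a site of AP-2 factors) and CACCC (a box bound by Kruppel-like factors), and the AP-2 and GC box matches overlap at 1 place in Krt7.
Krt7: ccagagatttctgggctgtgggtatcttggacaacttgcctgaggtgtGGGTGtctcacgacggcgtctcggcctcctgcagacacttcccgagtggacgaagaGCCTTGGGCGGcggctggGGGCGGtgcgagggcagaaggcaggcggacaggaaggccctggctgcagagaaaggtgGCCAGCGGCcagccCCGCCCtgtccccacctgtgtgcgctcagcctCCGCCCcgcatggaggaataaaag
Krt8: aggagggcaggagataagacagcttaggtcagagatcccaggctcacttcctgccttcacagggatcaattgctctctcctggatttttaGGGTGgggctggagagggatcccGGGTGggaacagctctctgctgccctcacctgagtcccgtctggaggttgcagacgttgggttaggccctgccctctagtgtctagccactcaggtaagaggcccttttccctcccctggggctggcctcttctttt
Krt18: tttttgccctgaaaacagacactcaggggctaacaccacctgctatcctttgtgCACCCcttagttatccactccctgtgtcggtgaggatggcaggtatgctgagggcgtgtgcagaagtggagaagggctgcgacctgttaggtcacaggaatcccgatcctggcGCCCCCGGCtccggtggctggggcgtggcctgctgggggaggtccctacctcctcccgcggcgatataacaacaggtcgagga

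The upstream regions of the 3 genes differ in these letters. Krt7 holds 4 GC boxes, against none in the windows of Krt8 and Krt18, and 35.7% of the 32851 promoter windows of 300 bases (250 before to 50 after the start) hold at least 1. The AP-2 letters occur at 2 places in Krt7, 1 in Krt18 and none in Krt8, and in 16.6% of all windows. All 3 windows hold CACCC, as do 57.5% of all windows. TATAAA, the TATA box, was searched on both strands too and occurs in the window of Krt8 alone, across the annotated start and so beyond the printed bases, and in 13.6% of all windows. TGANTCA, a site of AP-1 that reads the same on both strands, occurs in none of the 3 windows and in 7.81% of all. These matches describe the letters, and none says that a factor binds there or not.

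The 4 simple keratins sit in both keratin gene clusters of the mouse. On chromosome 15, Krt18 is the 1 type I gene within the type II cluster, and it lies directly beside Krt8 with 0 coding genes between them, while 23 coding genes separate Krt7 from Krt8. Krt19 lies in the type I cluster on chromosome 11. The genes that flank the chromosome 15 cluster in the table showed small ratios on 1 side: Atg101, an autophagy gene, stood at 1482 and 1193, Nr4a1, an orphan nuclear receptor, at 1195 and 1282, and Grasp at 869 and 904. On the other side, beyond Krt18, the translation factor gene Eif4b stood at 18328 in both libraries, Tns2, a tensin of focal adhesions, at 894 and 420 (2.13-fold lower), and Spryd3 at 566 and 585. Around Krt19, the listed neighbours on 1 side were Gm11560 (119 and 46, 2.59-fold lower), Krt10 and Krt222, and on the other Krt17, Krt42 and the initiation factor gene Eif1 (7349 and 6334). Between Krt19 and Krt10 lie 52 coding genes, and 58 between Krt19 and Krt222, against 3, 4 and 5 for Krt17, Krt42 and Eif1. Ratios of -1 or less were thus found for Krt19, Krt17, Krt42 and Gm11560 on chromosome 11 and for Krt7, Krt8, Krt18 and Tns2 on chromosome 15, and not for Krt10, Krt222 or the other neighbours named.

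**Figure D3:**
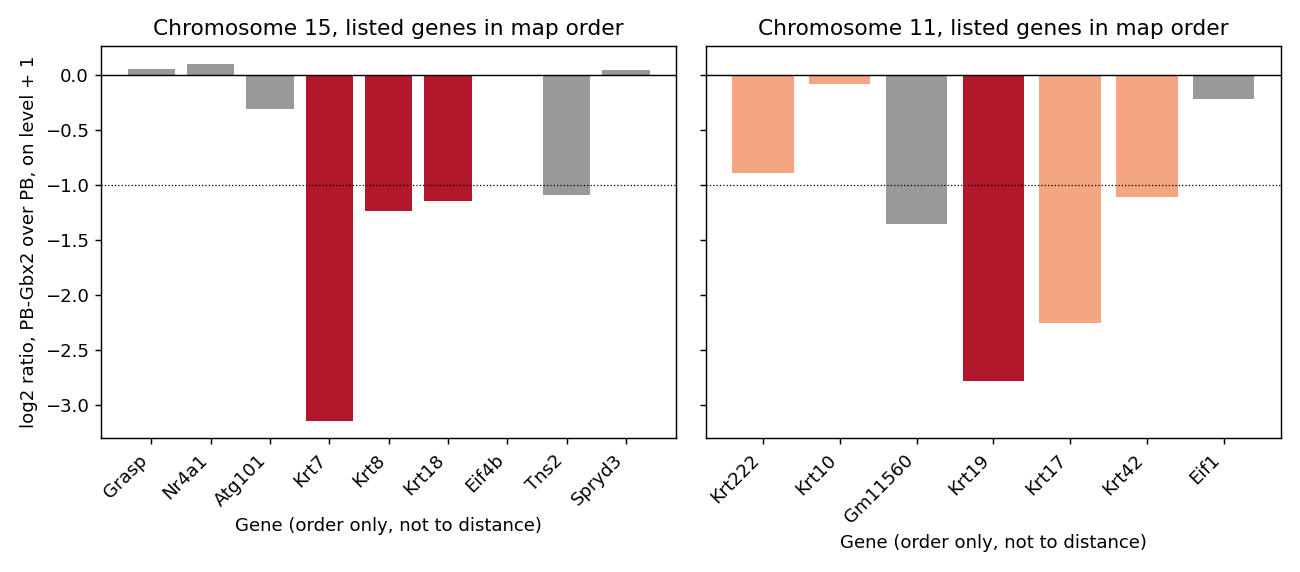
Log2 ratio of PB-Gbx2 over PB on level + 1 (bars, vertical axis) for the simple keratins and their nearest listed neighbours in map order on chromosome 15 (left) and chromosome 11 (right), with simple keratins in dark red, other keratins in light red and other genes in grey; the dotted line marks 2-fold lower and each bar is 1 library against 1 library. Krt7, Krt8 and Krt18 lie between Atg101 at -0.31 and Eif4b at 0, and Krt19 stands between Gm11560 at -1.35 and Krt17 at -2.26.

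The genes nearest in pattern to each simple keratin were found by distance in log2(level + 1) over the 2 libraries, which only says that both levels were alike. Symbols of the Gm, LOC, BC, AK and Rik kinds, date-like symbols and the 4 simple keratins were left out of this search. For Krt18 they were Arhgap33 (360 and 164) and Vasn (347 and 168), at distances of 0.01 and 0.07. For Krt8 they were Ddit3 (552 and 240) and Loxl2 (548 and 210), at 0.11 each. For Krt7 they were Scn9a (48 and 4) and Hsf4 (42 and 3), at 0.16 and 0.32. For Krt19 they lay furthest, the transglutaminase gene Tgm3 (304 and 62) and Aoc3 (256 and 56), at 0.37 and 0.56.

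Genes that anchor keratin filaments had ratios on both sides of 0. Of the 13 listed desmosome and plakin genes, none was at least 2-fold lower or higher, 8 lay below 0 and 5 above, and the median log2 ratio was -0.16. With a 1.5-fold threshold, 5 were lower and 1 higher, beside 1770 lower and 1684 higher of all 14500 genes. Over all genes, 5.26% were at least 2-fold lower, 5.14% at least 2-fold higher and 48.9% below 0. Desmoplakin (Dsp), which ties keratin to the desmosome, stood at 726 and 719, and plakoglobin (Jup) at 2644 and 3042. The members nearest to 2-fold were the plakophilin Pkp2 (1040 and 546), the desmosomal cadherin Dsc2 (51 and 26), the periplakin gene Ppl (333 and 182) and, in the opposite direction, Perp (262 and 496). Plectin (Plec), which links keratin to other filaments and to hemidesmosomes, stood at 4491 and 2491, a 1.8-fold lower level. Dsp and Jup thus differed by at most 1.15-fold between the libraries. Among the 725 genes of its level group, Plec had the 7th lowest ratio, and Pkp2 had the 11th lowest in its own. By the same ranking Perp had the 15th highest ratio and Dsp the 331st lowest.

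Of the 9 listed hemidesmosome genes, which hold keratin at the basement membrane, 1 was at least 2-fold lower, none was higher, and the median was -0.31. The shares over all genes were 5.26% at least 2-fold lower and 5.14% at least 2-fold higher. The laminin chain Lama3 stood at 140 and 63 (2.22-fold lower) and the hemidesmosomal collagen Col17a1 at 262 and 159. The list of keratin-associated proteins had a median of -0.08 over 14 listed genes, with 1 at least 2-fold higher and none lower. It was meant for proteins that bind, modify or fold simple keratins. It also holds Krtcap2 and Krtcap3, which are named as keratinocyte-associated proteins and are not known to do so. The cross-linking enzyme Tgm2 stood at 568 and 286, Pof1b, which binds actin, at 18 and 41, Krtcap3 at 244 and 168, and the chaperone Hspa8 at 45165 and 70328, the latter a top value that the normalization shares among genes.

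Other intermediate filament genes were mixed. Of 13 listed, 2 reached 2-fold higher and 1 reached 2-fold lower, against 5.14% and 5.26% of all genes, and the median was -0.05. Vimentin (Vim), the filament of mesenchymal cells, stood at 1698 and 1420. Peripherin (Prph), of neurons, stood at 404 and 150 (2.69-fold lower), while the neurofilament gene Nefm (20 and 80) and synemin (Synm, 198 and 412) were at least 2-fold higher. The glial filament gene Gfap stood at 32 and 16, a log2 ratio of -0.96 on level + 1.

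**Figure D4:**
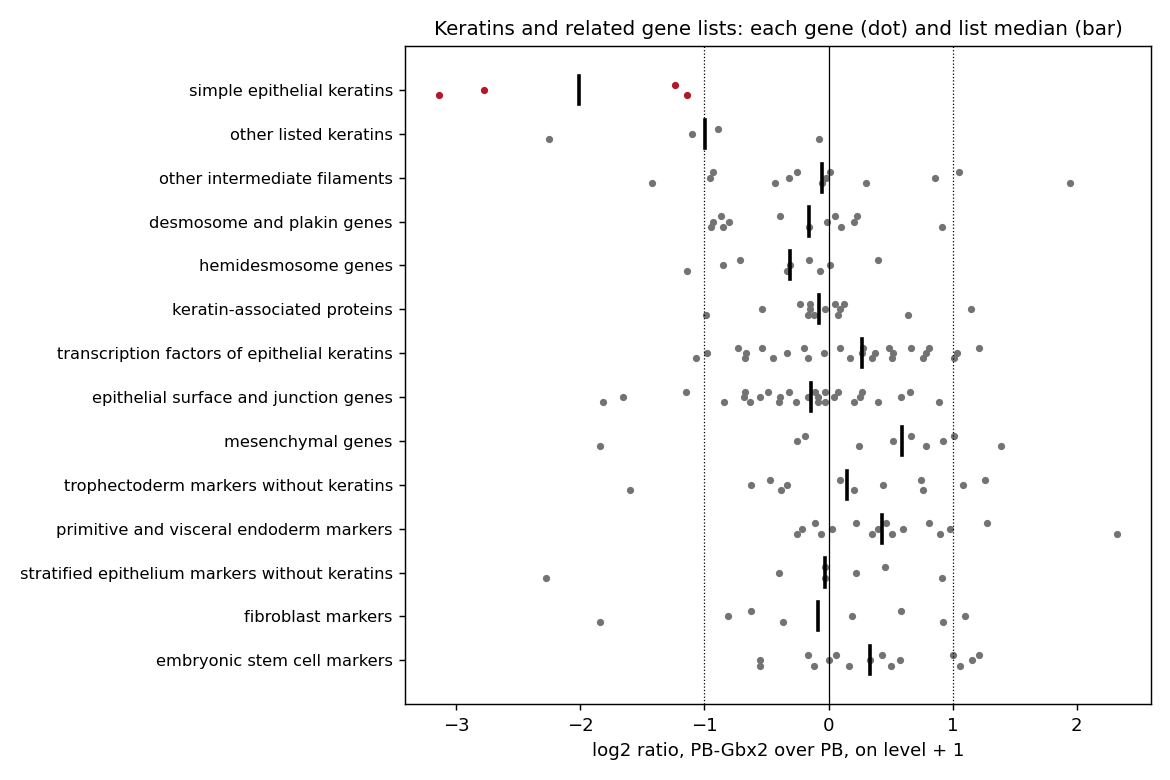
Log2 ratio of PB-Gbx2 over PB on level + 1 (horizontal axis) for every listed gene of the simple keratins (red dots) and of 13 related groups (grey dots), with a black bar at the median of each group and dotted lines at 2-fold. The simple keratins have a median of -2.01 and the other listed keratins lie between -2.26 and -0.08, while the 12 groups without keratins have medians between -0.31 and 0.59.

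Among other genes of simple epithelia, 3 of 28 listed reached 2-fold lower and none 2-fold higher, 19 lay below 0 and 9 above, and the median was -0.14. Of all genes, 5.26% reached 2-fold lower, 5.14% reached 2-fold higher and 48.9% lay below 0. The tight junction gene Cldn7 stood at 196 and 55 (3.56-fold lower), Esrp1, an epithelial splicing regulator, at 536 and 169 (3.17-fold lower), and Tjp3, a tight junction scaffold, at 882 and 398 (2.22-fold lower). The adhesion molecule Epcam stood at 2050 and 1288 (1.59-fold lower). E-cadherin (Cdh1), the main adhesion protein of both epithelia and stem cell colonies, stood at 7932 and 7339, and the mucin Muc1 at 48 and 90. Cldn7, Esrp1 and Tjp3 thus had ratios as low as that of Krt18, and the other 25 did not.

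Transcription factors known to act on keratin genes or on epithelial identity were mixed, with a median of 0.27 over 27 listed genes. The 27 include Fbxo11, a ubiquitin ligase subunit and not a transcription factor. Of these 27, 3 reached 2-fold higher and 1 reached 2-fold lower, against 5.14% and 5.26% of all genes. Those at least 2-fold higher were Klf4 (4701 and 10924), a factor of both epidermis and naive stem cells, the AP-1 subunit Jun (60 and 124) and Snai1 (76 and 154), a repressor of epithelial genes. Ovol1, an epithelial zinc finger factor, stood at 20 and 9. The epithelial regulator Grhl2 stood at 318 and 161, a 1.98-fold lower level just short of the threshold, and Klf5 at 1808 and 1092. Tfap2c, an AP-2 factor of trophectoderm and germ cells, stood at 1441 and 2439 (1.69-fold higher), and Ovol2 at 38 and 46. Mesenchymal genes had a median of 0.59 over 10 listed, with Fn1 (26866 and 70328) and Snai1 past 2-fold higher, the collagen gene Col1a1 (132 and 36) past 2-fold lower and Col1a2 at 9 and 18. The level of Fn1 in PB-Gbx2 is the top value that it shares with Hspa8, so its fold depends on that shared value.

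Markers of cell types that express simple keratins or could be present in the culture had ratios in both directions. The table lists 12 of 20 trophectoderm markers other than keratins, without Cdx2, Gata3, Elf5 and Hand1, and their summed level was 3769 in PB and 4521 in PB-Gbx2. Tfap2c had the largest difference among them, and the other 11 summed to 2328 in PB and 2082 in PB-Gbx2, the opposite direction. Of these 12, Fgfr2 (42 and 102) and Esx1 (25 and 54) reached 2-fold higher, Bmp8b (105 and 34) reached 2-fold lower, Eomes stood at 128 and 215, and the median was 0.15. Of the primitive and visceral endoderm markers, 16 of 22 were listed, without Sox7, Sox17 and Foxa2, with a median of 0.43 and a summed level of 26415 and 31590. Apoe had the largest difference among them, and the other 15 summed to 18928 in PB and 20222 in PB-Gbx2. Among these, Foxa1 (4 and 24) and Gata6 (18 and 45) reached 2-fold higher and none 2-fold lower. Pdgfra (63 and 125) and Gata4 (36 and 68) were nearest to the threshold. The whole table had 5.14% of its genes past that threshold upward and 5.26% downward. Upward it was passed by 175 of the 725 genes in the level group of Foxa1. The same count was 103 for Gata6, 85 for Esx1 and 79 for Fgfr2. Downward it was passed by 75 in the group of Bmp8b. With a minimum level of 100 in either library, the count of endoderm markers past it upward was 0. For trophectoderm it was 1.

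Of 20 markers of stratified epithelium other than keratins, 7 were listed, without Trp63, Ivl and Lor, with a median of -0.03 and a summed level of 4846 and 4772, or 3722 and 3919 without Tgm1, which had the largest difference. Tgm3 (304 and 62) was the 1 member at least 2-fold lower, while Perp, Gjb5 (420 and 576) and Tgm1 (1124 and 853) did not reach 2-fold. Of 15 fibroblast markers, 8 were listed, without Col3a1, Dcn and Lum, with a median of -0.09 and a summed level of 2587 in PB and 2043 in PB-Gbx2. Among these, Tagln (20 and 44) reached 2-fold higher, Col1a1 reached 2-fold lower, and Thy1 stood at 866 and 492. Thy1 had the largest difference, and the other 7 summed to 1721 in PB and 1551 in PB-Gbx2. Of the 15 stem cell markers, 4 reached 2-fold higher and none 2-fold lower, and the median was 0.33. The 4 were Klf4, Nanog (8918 and 19872), Fbxo15 (1324 and 2753) and Zfp42 (8320 and 16671). Of all genes, 5.14% reached 2-fold higher and 5.26% reached 2-fold lower. In the level group of Klf4, Nanog and Zfp42, 11 of 725 genes reached 2-fold higher, and in that of Fbxo15, 5 of 725. The part of any of these cell types in the keratin levels was not tested.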

How the data were processed

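Per the labels' protocols, Trizol was used to extract RNA and a TruSeq kit to make the libraries. The submitters' processing notes name STAR and mm9. Versions, annotation and the means of counting were not stated there. The authors' deposited levels were treated as a score and not as read counts, because their sorted values are the same in both libraries. Further columns deposited by the authors give a ratio of PB over PB-Gbx2 (a fold), its log2, and p-values, raw and adjusted. The 14501 rows hold 14500 symbols, and the 2 rows of a repeated symbol were summed. All columns belong to the 2 libraries.

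Log2 ratios, PB-Gbx2 over PB, used a pseudocount of 1, so changes of low genes are understated. Each gene was ranked within 1 of 20 groups of genes by mean level. Folds are plain ratios of the levels as deposited. The members and lists were chosen with earlier results of these data known. Genes were named by rule: Gbx2, all listed keratins, up to 4 genes per list with the largest absolute ratio, known partners of keratin, the 3 nearest listed genes on each side, and, with the exclusions given above, the 2 genes nearest in level to each member. A gene that the rule covers is not reported here. Pou5f1, Sox2 and Eomes were added after their values were seen. Map order came from RefSeq GRCm38.p6, which is not the build of the files and to which 96.2% of symbols matched. Lengths and shared 50-base windows came from GENCODE M21. A planned comparison of the proteins was not run. The scripts were tested on simulated data. Python 3.11.15, numpy 2.4.6, pandas 2.3.3, scipy 1.17.1 and matplotlib 3.10.9 were used. Alternatives were another pseudocount, minimum level, scaling, threshold, level group or length scale, and the highest row per symbol.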

Additional observations from a re-analysis of the deposited data

How the results depend on the processing

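All 4 simple keratins and 6 of the 8 listed keratins were at least 2-fold lower with a pseudocount of 0.1 or 5, with no minimum level, after both rescalings and with the highest row per symbol. The rescalings, the highest row and the absence of a minimum say little, since both libraries have the same sorted values, 1 symbol is repeated and no level is 0. With a pseudocount of 5 the log2 ratio of Krt7 was -2.42, and the other 59 of 60 log2 ratios of the listed keratins and Gbx2 moved by less than 1.5-fold. A minimum level of 100 in either library leaves fewer genes, Krt7 not among them. It gave 3 simple and 5 of all listed keratins lower, and 259 genes lower and 269 higher. Krt19 (377 and 54) and Krt17 (147 and 30) pass it only through PB, where they are high, so their part in these counts says little. The number of genes left at that minimum is not given here, so no share of them can be given. A 1.5-fold threshold gave 1770 lower and 1684 higher of all 14500 genes, with all 4 simple and 7 of all listed keratins lower. Without division by length, the ratio of type II to type I was 0.777 in PB and 1.05 in PB-Gbx2. Of 84 list medians none moved by 1.5-fold, which is a wide margin for medians that lay between -0.31 and 0.59. With the minimum level of 100, the fibroblast median went from -0.09 to -0.63 and the mesenchymal median from 0.59 to 0.3. Of the list counts, 28 of 192 moved by more than 1.5 times. All 8 places among genes of similar level, with 10 level groups or the 200 nearest genes, stayed within the lowest 5 percent. No paired analysis was possible because neither condition has a replicate, and leaving out a library was not possible for the same reason. The unknown depth limits what can be said of Krt7, at a level of 4 in PB-Gbx2.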
